A study of Mus musculus with 7 samples.

Results

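Threonine, serine and glycine metabolism was followed through 10 genes, Tdh, Gcat, Gldc, Shmt1, Shmt2, Mthfd2, Mthfd1l, Phgdh, Psat1 and Psph, of 29686 genes measured. They were chosen by name, with earlier results of these data known, as enzymes that make serine and glycine or pass their carbon on. The choice sets no threshold on a measured value. RNA-seq had been done on mouse fibroblasts, on cells underway to neural stem cells (NSC) under Oct4, Sox2, Klf4 and Myc (OSKM), and on the NSC obtained, with reference cells beside them and 1 library for each of 7 populations. A gene's level is the mean of its exon values in RPKM (reads divided by exon length and by sequencing depth), weighted by exon length. With 1 library per population no spread between replicates can be had, so no p-value is given, and any interval covers counting error only.

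Both OSKM NSC populations came from B6/129 cells that carry Rosa26-TdTomato from the B6 mother and Col1a-OSKM from the 129 father. One was positive for the Nanog-Tomato label (Tomato+) and the other was negative (Tomato-). Both were subcloned mechanically and grown without MEF feeders. The day 6 cells have the same strain and transgenes and a Nanog-CreER reporter. They received dox and 4OHT from day 1 to day 6 and were sorted as tdTomato positive, without feeders, which selects cells in which the Nanog-driven Cre had acted. Brain NSC were primary cells of BDF2 embryos, taken at E12.5 by the sample's description and at E13.5 by the protocol. The induced pluripotent stem cells (iPSC) were of strain A12 (Mbd3 flox/-), and the note on their feeders carries question marks. The embryonic stem cells (ESC) were of line v6.5, grown with MEF feeders. The mouse embryonic fibroblasts (MEF), the starting cell type, were of strain A12 (Mbd3 flox/-), not of the strain of the day 6 cells, so strain and population cannot be told apart.

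Serine is made from the glycolytic intermediate 3-phosphoglycerate by Phgdh, Psat1 and Psph in turn. Shmt1 in the cytosol and Shmt2 in mitochondria split serine into glycine and a carbon unit carried by folate, which Mthfd2 and Mthfd1l oxidise and release as formate for export from mitochondria. Glycine is also broken down by the glycine cleavage system, to which Gldc belongs, and is formed from threonine by Tdh and Gcat, a route that mouse embryonic stem cells are known to depend on.

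Depth ran from 19 megareads in Tomato+ OSKM NSC to 58 megareads in iPSC. The day 6 library stood apart in how evenly reads lay along genes. The median spread (SD) of the exon log2 ratios within a gene was 0.604 to 0.666 over all genes in the 6 library pairs with day 6, and 0.181 to 0.330 in the 15 pairs without it. For the 10 enzymes it was 0.692 to 0.847 in pairs with day 6 and 0.125 to 0.513 in the others. One gene, Gm42418, held 8.82% of exon reads on day 6 and at most 0.0657% elsewhere. Fibroblast and mesenchymal markers (8 genes) summed to 1914 RPKM in Tomato+ OSKM NSC, 3973 in ESC, 33898 in MEF and at most 135 in the other 4 libraries. Leukocyte markers (8 genes) summed to at most 167 RPKM in the other libraries and to 3360 in MEF, led there by Lyz2 at 2098 RPKM. Among them Ptprc was at 0 on day 6 and in brain NSC, at most 0.106 RPKM in the other 4 and 15.1 in MEF. Pluripotency markers summed to 1042 RPKM over 6 genes on day 6, 6978 in iPSC and 8870 in ESC, and to at most 11.2 in the other 4. Of the day 6 sum, 886 RPKM was Pou5f1 (Oct4), itself an OSKM factor, and its reads were not split between transgene and native gene. Nanog was at 67.2 RPKM on day 6, 772 in iPSC and 765 in ESC, and Dppa5a at 12.3, 2867 and 5932. NSC markers summed to 7790, 11698 and 6046 RPKM over 8 genes in Tomato+ OSKM NSC, Tomato- OSKM NSC and brain NSC, and to at most 261 elsewhere. The part of these in the results below was not tested.

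MEF had the lowest level of 9 of the 10 enzymes, and Tdh was the exception. Of the 18697 genes that reached 2 RPKM in any library, 20.4% were lowest in MEF. The 9 of 10 held under each of the 5 other ways of scaling and of joining exons that were run, where the share over all genes lay between 14.3% and 23.0%. Summed over the 10 genes, the level was 1507 RPKM in Tomato+ OSKM NSC, 1556 in Tomato- OSKM NSC, 1550 on day 6, 1375 in brain NSC, 2274 in iPSC, 1746 in ESC and 438 in MEF. Summed proliferation markers (7 genes) were at 619 RPKM in brain NSC, 1135 to 2032 in the 5 others and 389 in MEF, again the lowest, and their part in the result was not tested. Fewer cells of a type and less RNA per cell cannot be told apart in such bulk samples.

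**Figure D1:**
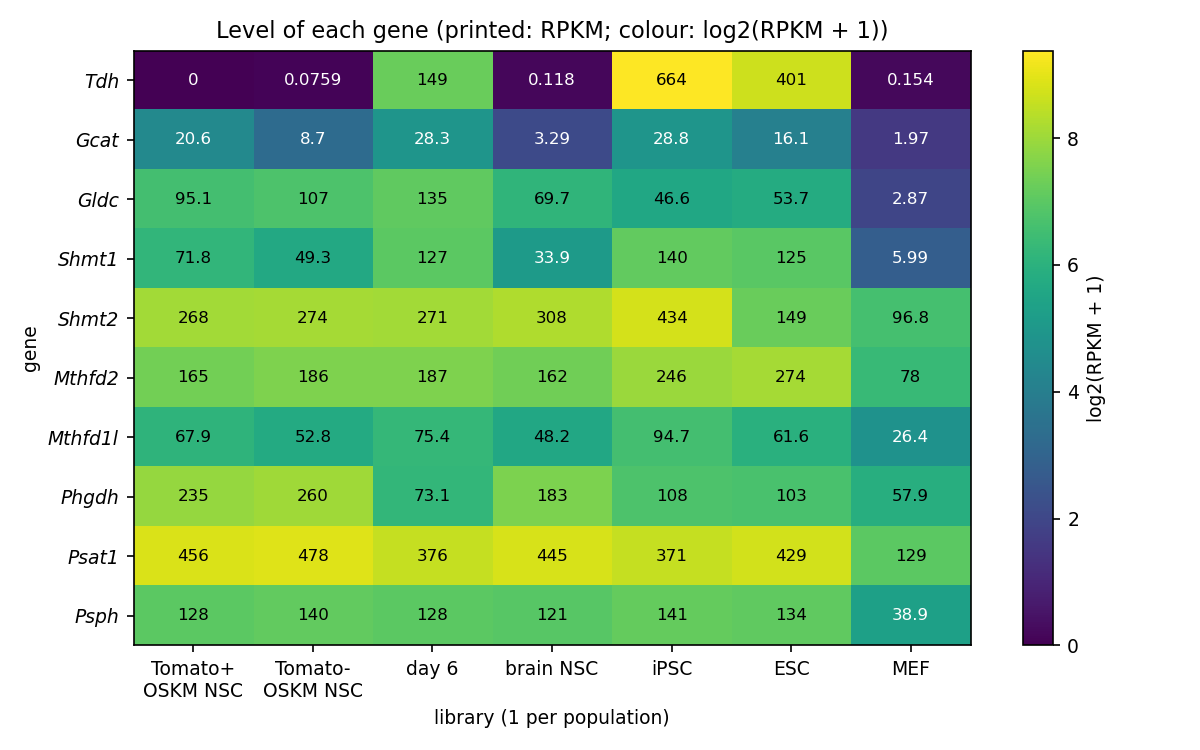
Level of each of the 10 enzymes (down the page) in each of the 7 libraries (across), with the RPKM printed and log2(RPKM + 1) as colour. Tdh is near 0 outside day 6, iPSC and ESC, and the MEF column is the lowest for the other 9 genes.

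Tdh, the mitochondrial threonine dehydrogenase, lies on chr14:63492347-63509092 (mm10, minus strand). Its level was 149 RPKM on day 6, 664 in iPSC and 401 in ESC. It was 0 in Tomato+ OSKM NSC, 0.0759 in Tomato- OSKM NSC, 0.118 in brain NSC and 0.154 in MEF. These 4 libraries held 0, 6, 6 and 13 reads, and the 0 allows up to 0.0839 RPKM (3 reads). The 3 high libraries, with 12899, 72485 and 30920 reads, do not come near the low 4. Among the low 4, neighbours in the order of levels are within counting error, while Tomato+ OSKM NSC was below MEF, with an interval of the ratio up to 0.777. Day 6 over MEF was a ratio of 971 (95% exact interval 567 to 1823). Among the high libraries the order was iPSC, ESC, day 6, with day 6 at 0.224 of iPSC (0.220 to 0.229) and 0.372 of ESC (0.364 to 0.380). Against the pluripotent lines the day 6 level therefore passed 2-fold, with a log2 ratio of -1.42 against ESC, but the value was -0.97 with equal totals without Gm42418. Tdh made up 9.62% of the summed level of the 10 enzymes on day 6, 29.2% in iPSC and 23.0% in ESC, and at most 0.0351% in the other 4 libraries.

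Within Tdh, reads were not spread evenly over the 9 exons of the GENCODE coding transcript along which they are numbered. Exon numbers of the other genes likewise follow 1 transcript each. Exons 3 and 4, whose whole length is coding, are shown because they stood below both neighbours in the pluripotent lines. They lie at chr14:63497598-63497640 and chr14:63496945-63497015, and the sequences are those of GENCODE M21, minus strand, with no bases marked.
Tdh exon 3: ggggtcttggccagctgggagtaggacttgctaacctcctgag
Tdh exon 4: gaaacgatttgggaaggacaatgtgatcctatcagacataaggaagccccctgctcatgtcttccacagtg
Exons 2 to 5 had 91.3, 93.5, 118 and 206 RPKM on day 6. They had 843, 160, 113 and 734 RPKM in iPSC, and 551, 118, 105 and 614 RPKM in ESC. In iPSC and ESC exons 3 and 4 were thus far below exons 2 and 5, while on day 6 they stood level with or above exon 2. Exon 4 was accordingly the only exon in which day 6 was not below both lines, with log2 ratios of 0.06 to iPSC and 0.16 to ESC. Exon 3 is 43 bases long and exon 4 is 71, and the part of exon length in these values was not tested. Exons 3 and 8 of Tdh share bases with Gm17232 on the other strand, and strand was not used.

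Gcat, which turns the product of Tdh into glycine and acetyl-CoA, lies on chr15:79030874-79038353 (plus strand) and was measured by only 2 exons. Its level was 20.6 RPKM in Tomato+ OSKM NSC, 8.70 in Tomato- OSKM NSC, 28.3 on day 6, 3.29 in brain NSC, 28.8 in iPSC, 16.1 in ESC and 1.97 in MEF. It was thus high in the libraries that held Tdh, but also in Tomato+ OSKM NSC, which held none. At the 5′ exon alone, brain NSC and MEF, with 17 and 25 reads, were within counting error of each other. Over both exons they held 129 and 129 reads, at depths of 27 and 45 megareads. No counting interval was made for both exons together. The ratio of Tdh to Gcat was 5.26 on day 6 and 23.0 in iPSC, with ESC above both. The 2 exons did not move alike. The 5′ exon had 71.6 RPKM on day 6, 57.7 in iPSC and 14.1 in ESC, and the 3′ exon, of 1211 bases, had 19.5, 23.0 and 16.5 in the same order.

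Gldc, the glycine decarboxylase of the glycine cleavage system, lies on chr19:30098447-30175429 (minus strand) and was read from 25 exons. It had 95.1 RPKM in Tomato+ OSKM NSC, 107 in Tomato- OSKM NSC, 135 on day 6, 69.7 in brain NSC, 46.6 in iPSC, 53.7 in ESC and 2.87 in MEF. Day 6 was highest and MEF stood far below all others, with a day 6 to MEF ratio of 47.1 (43.9 to 53.7) and all 25 exons at least 2-fold higher on day 6. Against the pluripotent lines the log2 ratio on day 6 was 1.52 over iPSC and 1.31 over ESC, at least 2-fold in 20 and 17 of the 25 exons. Gldc was the 1 enzyme of the 10 at least 2-fold above both lines on day 6.

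The partners of Gldc differed from it in part. Amt, the aminomethyltransferase, was at 28.6 RPKM on day 6, 185 in iPSC, 214 in ESC and 16.6 in MEF, and at 67.7, 62.4 and 67.9 in Tomato+, Tomato- and brain NSC. Against the pluripotent lines, Amt was therefore low on day 6, with a log2 ratio of -2.65, where Gldc was high. Gcsh, the lipoyl carrier protein, was at 161 RPKM on day 6 against 41.6 in MEF, with a log2 ratio of 1.92. It was at 125 RPKM in iPSC and 202 in ESC, and at 142, 91.7 and 64.2 in Tomato+, Tomato- and brain NSC. Gcsh was thus lowest in MEF, as Gldc and Amt were, but highest in ESC. Dld, the lipoamide dehydrogenase shared with other complexes, was at 189 RPKM on day 6, 93.3 in iPSC, 126 in ESC and 107 in MEF, and at 219 to 244 in the 3 NSC libraries.

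Shmt1 and Shmt2 catalyse the same reaction in different compartments and differed in range. Shmt1 lies on chr11:60788104-60811718 (minus strand). It had 71.8 RPKM in Tomato+ OSKM NSC, 49.3 in Tomato- OSKM NSC, 127 on day 6, 33.9 in brain NSC, 140 in iPSC, 125 in ESC and 5.99 in MEF. The day 6 and pluripotent libraries were high and the 3 NSC libraries lay between them and MEF. Day 6 over MEF was a ratio of 21.2 (20.0 to 23.2), and brain NSC over MEF 5.66 (5.23 to 6.19), with all 12 exons at least 2-fold higher in both. In OSKM NSC the log2 ratio to day 6 was -0.81 for Tomato+ and -1.35 for Tomato-. All 12 exons were higher in Tomato+ than in Tomato- OSKM NSC, at a ratio of 1.46 (1.39 to 1.51), and the log2 ratio, 0.53 as deposited, was as low as 0.11 under the other scalings.

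Shmt2 lies on chr10:127517123-127522444 (minus strand). It had 268 RPKM in Tomato+ OSKM NSC, 274 in Tomato- OSKM NSC, 271 on day 6, 308 in brain NSC, 434 in iPSC, 149 in ESC and 96.8 in MEF. The OSKM NSC and day 6 libraries were within counting error of each other. iPSC was highest, at 2.91 times ESC (2.86 to 2.97), and 11 of 12 exons were at least 2-fold higher in iPSC. The ESC value was uneven along the gene, and the exon log2 ratios of ESC to MEF ran from -1.26 to 1.33. At exon 10 of Shmt2, ESC had 40.5 RPKM against 98.7 in MEF, while at exon 11 they had 214 and 162. The last exon shares bases with Ndufa4l2 on the other strand.

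The ratio of Shmt2 to Shmt1 was 3.74 in Tomato+ OSKM NSC, 5.56 in Tomato- OSKM NSC, 2.14 on day 6, 9.07 in brain NSC, 3.10 in iPSC, 1.19 in ESC and 16.2 in MEF. The mitochondrial form had the higher RPKM in every library, by the least in ESC and by the most in MEF.

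Both mitochondrial folate enzymes had narrow ranges. Mthfd2, which oxidises methylene-tetrahydrofolate, lies on chr6:83305691-83325908 (minus strand). It had 165 RPKM in Tomato+ OSKM NSC, 186 in Tomato- OSKM NSC, 187 on day 6, 162 in brain NSC, 246 in iPSC, 274 in ESC and 78.0 in MEF. The highest level was 3.51 times the lowest, and Tomato- OSKM NSC and day 6 were within counting error. Day 6 over MEF was a log2 ratio of 1.25, which became 0.82 when a gene was taken as the median of its exons. Mthfd1l, which releases formate, lies on chr10:3973118-4167081 (plus strand). It had 67.9 RPKM in Tomato+ OSKM NSC, 52.8 in Tomato- OSKM NSC, 75.4 on day 6, 48.2 in brain NSC, 94.7 in iPSC, 61.6 in ESC and 26.4 in MEF. All 28 exons compared were higher in Tomato+ than in Tomato- OSKM NSC, at a ratio of 1.28 (1.24 to 1.32), but that direction depends on the scaling, since the log2 ratio was 0.35 as deposited and -0.07 with equal totals. The ratio of Mthfd2 to Mthfd1l stayed between 2.43 in Tomato+ OSKM NSC and 4.44 in ESC.

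Serine synthesis differed most at its first step. Phgdh, which commits 3-phosphoglycerate to serine, lies on chr3:98313170-98339990 (minus strand). It had 235 RPKM in Tomato+ OSKM NSC, 260 in Tomato- OSKM NSC, 73.1 on day 6, 183 in brain NSC, 108 in iPSC, 103 in ESC and 57.9 in MEF. The 3 NSC libraries were above the other 4 with no overlap. Tomato+ and Tomato- OSKM NSC were 3.22 times (3.12 to 3.33) and 3.55 times (3.46 to 3.66) day 6. The exon log2 ratios behind these values were uneven, from -0.39 to 3.30 for Tomato+ and from -0.03 to 3.31 for Tomato-. At least 2-fold higher than day 6 were 9 of 12 exons in Tomato+ and 11 of 13 in Tomato-. Day 6 was 1.26 times MEF (1.21 to 1.30), the smallest of the 10 ratios between these libraries. That value likewise averaged unlike exons, since the exon log2 ratios of day 6 to MEF ran from -1.56 to 4.47.

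Exons 3 and 4 of Phgdh, both coding throughout, held the widest of the differences between day 6 and MEF and are shown for that reason. They lie at chr3:98333235-98333300 and chr3:98328289-98328343, and the sequences are those of GENCODE M21, minus strand, with no bases marked.
Phgdh exon 3: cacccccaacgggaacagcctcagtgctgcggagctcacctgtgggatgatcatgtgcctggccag
Phgdh exon 4: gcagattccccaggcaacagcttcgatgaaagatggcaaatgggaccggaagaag
Exon 4 had 87.1 RPKM in Tomato+ OSKM NSC, 102 in Tomato- OSKM NSC, 39.1 on day 6, 72.7 in brain NSC, 2.82 in iPSC, 30.6 in ESC and 0.808 in MEF. The iPSC and MEF values are 9 and 2 reads, and both stood more than 10-fold below the other 5. Exon 3 was low everywhere, at 13.6, 18.4, 18.1, 3.93, 0.261, 4.80 and 1.01 RPKM in the same order, again lowest in iPSC and MEF. Exon 5, next to them, had 38.3 RPKM in iPSC and was lowest in MEF. iPSC and MEF are the libraries of strain A12, so strain and population cannot be told apart here. Near the 3′ end, exon 11 had 366 RPKM in Tomato+ OSKM NSC, 369 in Tomato- OSKM NSC, 36.3 on day 6, 254 in brain NSC, 196 in iPSC, 41.6 in ESC and 109 in MEF. At that exon MEF was above both day 6 and ESC, opposite to the gene as a whole. MEF was also above day 6, though not above ESC, at exons 9, 10 and 12. Day 6 had 24.7, 6.64 and 63.0 RPKM there, and MEF 47.8, 15.8 and 103.

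**Figure D2:**
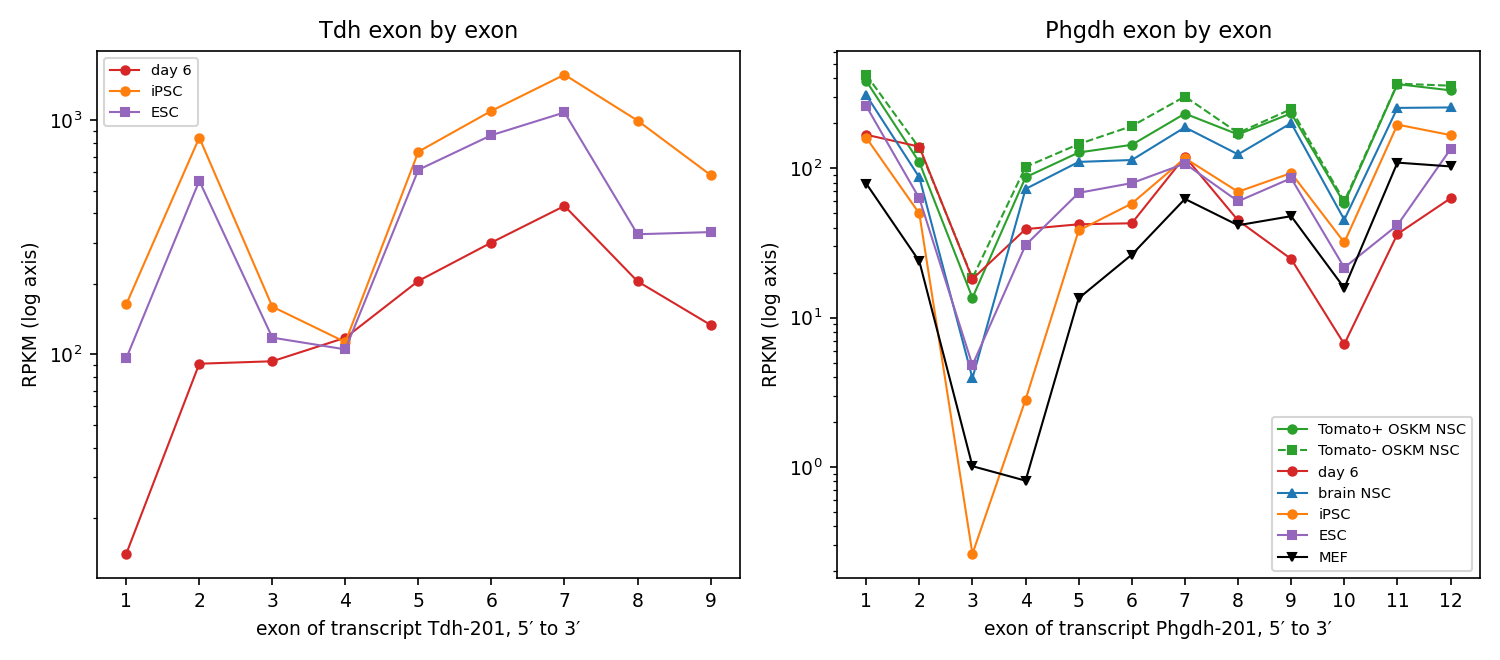
RPKM (log axis) of each exon of Tdh in day 6, iPSC and ESC (left) and of Phgdh in all 7 libraries (right), exons numbered 5′ to 3′. Tdh exons 3 and 4 dip in iPSC and ESC, and Phgdh exon 4 drops to 2.82 RPKM in iPSC and 0.808 in MEF.

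Psat1, the transaminase of the second step, lies on chr19:15904678-15947337 (minus strand). By the mean over exons it was the highest of the 10 enzymes in every library but iPSC, where Tdh and Shmt2 were higher. By the reads of non-overlapping exons, Psat1 in ESC was at 400 RPKM (397 to 404) and Tdh at 401 (396 to 405). By the mean, Psat1 had 456 RPKM in Tomato+ OSKM NSC, 478 in Tomato- OSKM NSC, 376 on day 6, 445 in brain NSC, 371 in iPSC, 429 in ESC and 129 in MEF. The 6 libraries other than MEF lay close together, and Tomato+ OSKM NSC and brain NSC were within counting error at a ratio of 1.02 (0.997 to 1.03). Its exons were even, with an exon log2 SD of 0.06 between Tomato+ OSKM NSC and brain NSC. Day 6 was the exception, with 310 and 304 RPKM at exons 5 and 6 and 592 and 506 at exons 4 and 7. Day 6 over MEF was a log2 ratio of 1.54, and 0.52 by the highest exon of the gene.

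Psph, the phosphatase of the last step, lies on chr5:129765558-129787449 (minus strand). It had 128 RPKM in Tomato+ OSKM NSC, 140 in Tomato- OSKM NSC, 128 on day 6, 121 in brain NSC, 141 in iPSC, 134 in ESC and 38.9 in MEF. The level by this mean was thus flat outside MEF, with iPSC and Tomato- OSKM NSC within counting error. It was not flat when taken from the reads of 7 of the 9 non-overlapping exons, those with whole reads in every library. Day 6 was then at 184 RPKM, against 128 in brain NSC, 137 in Tomato+ OSKM NSC, 144 in ESC, 150 in Tomato- OSKM NSC and 154 in iPSC. The exons left out by that rule had 4.87 and 143 RPKM on day 6, and 7.66 and 255 in iPSC. The part of that rule in the day 6 value was not tested. The exons behind the day 6 value were not flat. Exon 7 had 699 RPKM on day 6, 205 to 261 in the 5 other libraries besides MEF and 58.6 in MEF. At exon 2, in the non-coding 5′ part, day 6 had 10.5 RPKM, iPSC 18.3 and ESC 24.4, all below MEF at 32.1. The exon before it shares bases with Cct6a on the other strand, so its reads cannot be assigned.

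The ratio of Psat1 to Phgdh was 1.94 in Tomato+ OSKM NSC, 1.84 in Tomato- OSKM NSC, 5.14 on day 6, 2.44 in brain NSC, 3.45 in iPSC, 4.17 in ESC and 2.23 in MEF. The 3 NSC libraries and MEF had the low ratios, and day 6 and the pluripotent lines the high ones.

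**Figure D3:**
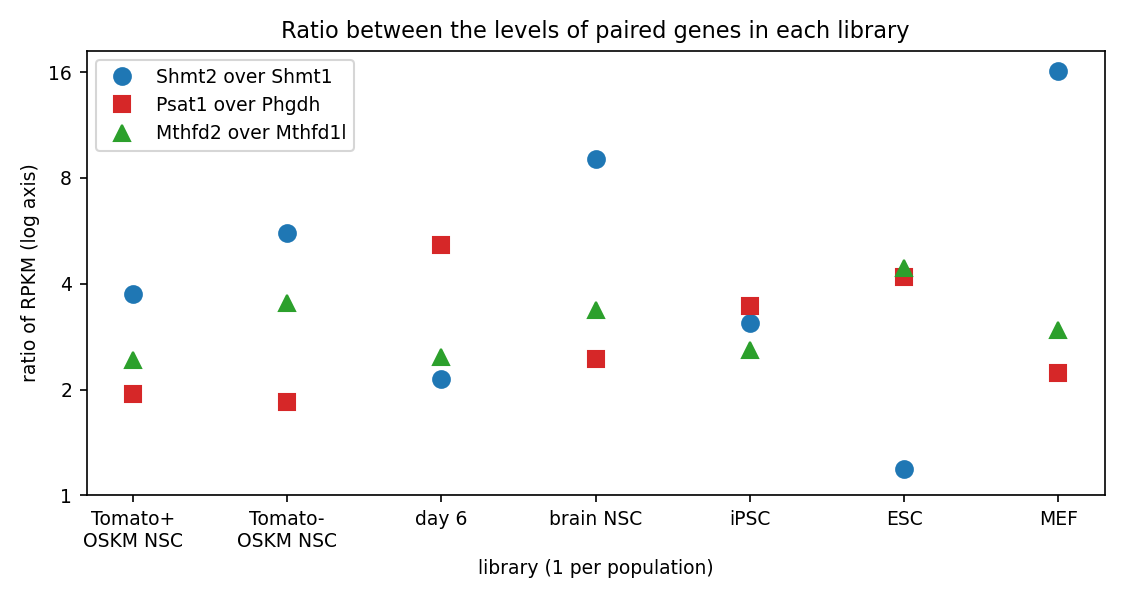
Ratio of RPKM (log axis) between paired enzymes in each of the 7 libraries. Shmt2 over Shmt1 runs from 1.19 in ESC to 16.2 in MEF, Psat1 over Phgdh from 1.84 in Tomato- OSKM NSC to 5.14 on day 6, and Mthfd2 over Mthfd1l from 2.43 to 4.44.

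The comparisons were then counted at a log2 ratio of at least 1 (2-fold) on log2(RPKM + 1), for genes of at least 2 RPKM in any library compared, and in every pair where a side had 2 libraries. On day 6 against MEF, 9 of 10 enzymes were higher and 0 lower, all but Phgdh. Over all genes 22.4% were higher and 31.2% lower. The median log2 ratio of the 10 was 1.61, against -0.13 over all genes tested.

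iPSC and ESC against MEF gave 8 of 10 enzymes higher and 0 lower, where 20.5% of all genes were higher and 18.9% lower. Phgdh and Shmt2 were the other two. Phgdh had log2 ratios of 0.88 in iPSC and 0.82 in ESC. Shmt2 had 2.15 in iPSC and 0.61 in ESC. Mthfd1l was near the limit, with log2 ratios of 1.81 and 1.19, and as low as 0.84 under the other scalings. Brain NSC against MEF gave 7 higher and 0 lower of the 9 tested, with 21.7% of all genes higher and 22.2% lower. Tdh was under 2 RPKM in both, and Gcat and Mthfd1l, with log2 ratios of 0.53 and 0.85, were under 2-fold. Both folate enzymes were near the limit, since Mthfd2, at 1.04, was at 0.83 with median-of-ratios scaling, and Mthfd1l was at 1.19 with equal totals, which makes the count 6 or 8.

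Day 6 against iPSC and ESC gave 1 enzyme higher, Gldc, and 1 lower, Tdh, where 9.2% of all genes were higher and 19.1% lower. OSKM NSC against day 6 likewise gave 1 higher, Phgdh, and 1 lower, Tdh, where 24.4% of all genes were higher and 11.2% lower. Gcat and Shmt1 were at least 2-fold lower in Tomato- OSKM NSC alone, with log2 ratios of -1.60 and -1.35, and not in Tomato+, with -0.44 and -0.81. These counts are near or below the shares over all genes.

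OSKM NSC against brain NSC gave 1 of 9 tested enzymes higher, Gcat, and 0 lower, where 8.16% of all genes were higher and 5.08% lower. Gcat had log2 ratios of 2.33 in Tomato+ and 1.18 in Tomato- OSKM NSC, and the second was 0.80 with a pseudocount of 4. Shmt1 had 1.06 in Tomato+ and 0.53 in Tomato- OSKM NSC, and the other 7 were under 2-fold in both. Tomato+ against Tomato- OSKM NSC also gave 1 of 9 higher, Gcat, and 0 lower, with 9.77% of all genes higher and 5.5% lower. Its log2 ratio there was 1.15, and 0.75 with equal totals. Tomato+ OSKM NSC also held the higher mesenchymal marker sum, 1914 RPKM against 135, and the part of these cells was not tested.

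**Figure D4:**
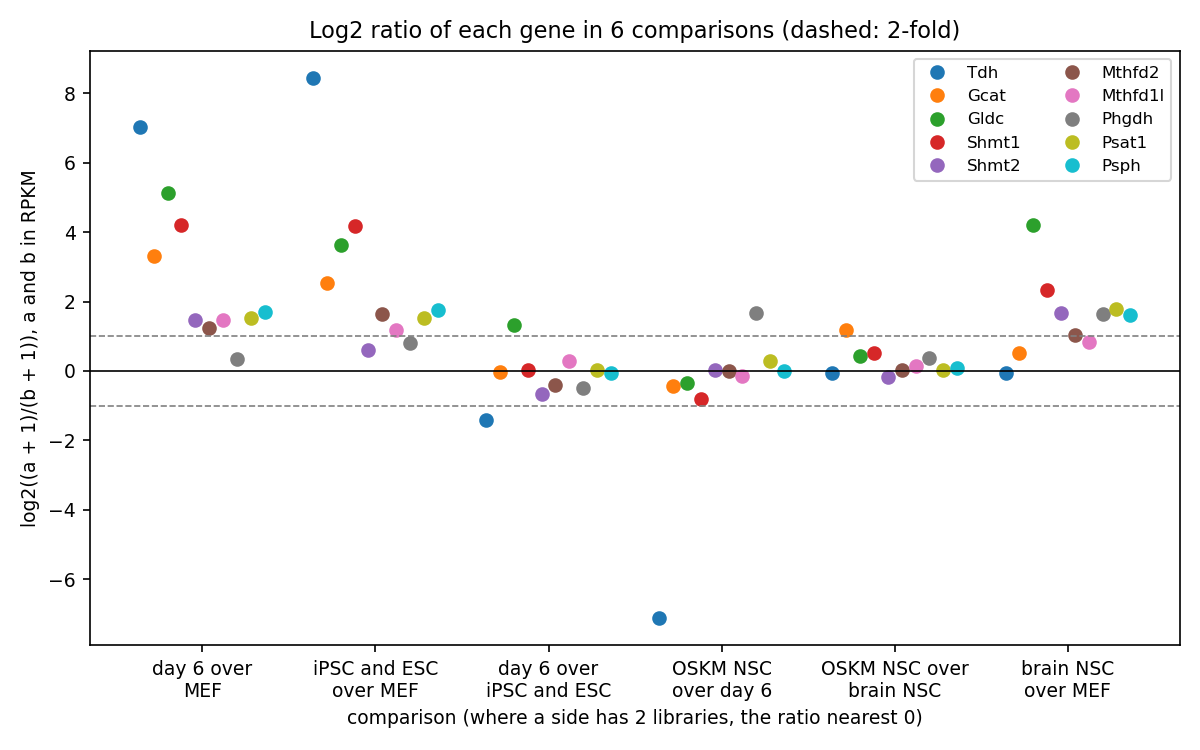
Log2((a + 1)/(b + 1)) of each of the 10 enzymes in 6 comparisons, with the ratio nearest 0 where a side has 2 libraries, and dashed lines at 2-fold. All 10 points are above 0 for day 6 over MEF, while over brain NSC the OSKM NSC points other than Gcat lie within 2-fold.

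Genes next to these enzymes in the pathway were described from lists drawn up with results of these data known. Of 15 folate genes tested on day 6 against MEF, 4 were at least 2-fold higher and 4 lower, near the 22.4% and 31.2% over all genes. Mthfd1, the cytosolic folate enzyme, was at 297 RPKM on day 6, 355 in iPSC, 329 in ESC and 30.8 in MEF, and at 154, 164 and 99.8 in Tomato+, Tomato- and brain NSC. Like Shmt1, another cytosolic enzyme, it was high on day 6 and in the pluripotent lines, lower in the NSC libraries and lowest in MEF. The lower genes included Aldh1l1, which oxidises formyl-tetrahydrofolate in the cytosol, at 0.885 RPKM on day 6 against 18.4 in MEF. Its mitochondrial counterpart Aldh1l2 was at 30.6 RPKM in Tomato+ OSKM NSC, 61.3 in Tomato- OSKM NSC and 200.5 in brain NSC, against 6.36 on day 6. Aldh1l1 had the opposite difference between the NSC kinds, at 23.2 and 41.3 RPKM in Tomato+ and Tomato- OSKM NSC against 1.14 in brain NSC.

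Of 11 methionine cycle and transsulfuration genes tested on day 6 against MEF, 5 were higher and 1 lower, beside 22.4% and 31.2% over all genes. Of 13 tested in iPSC and ESC against MEF, 9 were higher and 0 lower, beside 20.5% and 18.9%. Cth, which makes cysteine from cystathionine, was at 683 RPKM on day 6, 256 in iPSC, 535 in ESC and 11.2 in MEF, and at 42.3, 77.8 and 16.1 in Tomato+, Tomato- and brain NSC. Cbs, which joins serine to homocysteine one step before Cth, was instead at 48.7, 96.1 and 45.8 RPKM in those 3 NSC libraries, 9.41 on day 6, 38.0 in iPSC, 43.7 in ESC and 1.33 in MEF. For OSKM NSC over day 6 the log2 ratio nearest 0 was 2.25 for Cbs and -3.12 for Cth, opposite in sign at neighbouring steps.

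Of 16 transport and use genes tested on day 6 against MEF, 6 were higher and 3 lower, beside the same 22.4% and 31.2%. Gart, a purine synthesis enzyme that uses glycine and a formyl group, was at 205 RPKM on day 6, 223 in iPSC, 302 in ESC and 30.1 in MEF. Gatm, which uses glycine for creatine synthesis, was at 85.3 RPKM in Tomato+ OSKM NSC, 217 in Tomato- OSKM NSC and 208 in brain NSC, against 4.25 on day 6. The glycine transporter Slc6a9 was at 21.7, 78.8 and 149 RPKM in the same 3 NSC libraries and at 4.99 on day 6. Of 11 amino acid response genes 3 were higher and 2 lower on day 6 against MEF, which is near or below those shares. Asns, the asparagine synthetase, was at 788 RPKM on day 6 against 109 in MEF, while Ddit3, a stress-induced transcription factor, was at 20.3 against 139.

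Likeness was measured as Pearson's r of log2(RPKM + 1) over the 7 libraries, among protein coding genes that reached 20 RPKM. The 7 points differ in strain, depth and culture, and r is given as a description. Closest to Tdh were Ildr1 (0.998), Hsd17b14 (0.998), Sall4, a stem cell transcription factor (0.997), Mst1 and Aqp3 (both 0.996). Closest to Shmt1 were Ppat and Cad (both 0.996), the first enzymes of purine and pyrimidine synthesis, then Supv3l1 and Utp14a (both 0.993) and Dkc1 (0.991). Closest to Gldc were Aspm (0.986), Iws1 (0.985), Bpnt1 (0.983), Trim33 (0.980) and Champ1 (0.977). Phgdh was most like Nprl3 (0.992), Klhdc10 (0.989), Dcun1d4, Anp32e and Panx1. Among the 10 enzymes themselves Psat1 and Psph were most alike (0.968), followed by Shmt1 and Mthfd1l (0.956), and Tdh and Phgdh were least alike (-0.47).

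Promoters were read as the 250 bases before the RefSeq start (GRCm38.p6), which 9 of the 10 genes had, with 10 promoters in all. The gene without a promoter was Tdh, so it was not searched for any motif, and Psat1 had 2 promoters. The motif CCAAT, bound by NF-Y, was searched on both strands and occurred in 6 of the 10, against 33.8% of 32851 promoters of the same length. It occurred at least 2 times in 1 promoter each of Phgdh, Psat1, Psph and Mthfd2, against 10.1% of those promoters. The other Psat1 promoter, at chr19:15924623-15924872, held 0 copies. The window of Psph is not shown, since its first exon shares bases with Cct6a on the other strand. The motifs CACGTG, TGATGNAA and ATGCAAAT were in 0 of 10, and in 6.02%, 3.45% and 1.60% of all. No CCAAT copy overlaps another of the motifs, and all were chosen with the values known. The promoters of the other 3 genes with several copies are shown on the minus strand, with each CCAAT or its reverse complement in capitals, at chr3:98339970-98340219, chr19:15925060-15925309 and chr6:83317605-83317854.
Phgdh promoter: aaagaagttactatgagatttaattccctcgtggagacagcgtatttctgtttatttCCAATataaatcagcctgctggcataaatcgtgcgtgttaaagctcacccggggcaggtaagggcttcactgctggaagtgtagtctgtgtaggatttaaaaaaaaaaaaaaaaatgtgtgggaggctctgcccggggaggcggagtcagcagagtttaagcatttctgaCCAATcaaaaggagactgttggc
Psat1 promoter: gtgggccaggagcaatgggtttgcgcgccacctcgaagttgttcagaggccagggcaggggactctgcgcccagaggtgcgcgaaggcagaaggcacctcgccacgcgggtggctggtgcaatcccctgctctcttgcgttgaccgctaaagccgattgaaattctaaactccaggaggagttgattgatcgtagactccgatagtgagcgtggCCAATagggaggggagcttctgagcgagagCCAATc
Mthfd2 promoter: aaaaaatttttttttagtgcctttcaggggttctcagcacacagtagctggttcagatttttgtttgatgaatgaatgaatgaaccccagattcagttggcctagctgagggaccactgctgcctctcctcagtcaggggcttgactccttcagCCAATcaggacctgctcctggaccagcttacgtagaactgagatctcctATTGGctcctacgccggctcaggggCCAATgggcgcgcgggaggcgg
The genes share the motif but not the library in which they were highest, which was Tomato- OSKM NSC for Phgdh and Psat1 and ESC for Mthfd2.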

How the data were processed

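The authors deposited 1 table of RPKM per Ensembl exon in 7 libraries. RPKM as the unit was read from the values. The submitters' processing notes list mm10 as the build and bedtools, TopHat2 2.0.10, Bowtie and CASAVA 1.8.2 as tools, with no roles, and the labels' protocols name the TruSeq RNA kit v2. Of 279252 exons, 270168 (96.7%) matched GENCODE M21 by exon ID, and 9084 were left out. The gene level was the mean of the exon RPKM weighted by exon length, and strand was not used. Gcat exons were taken from 1 of 2 gene models of that name; the other had 1 read in iPSC and 0 elsewhere.

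Depth was recovered from the step that 1 read makes in low values. Between 96.3% and 96.5% of values were whole reads within 0.01 read plus 1e-05 of the value, which gave 19 megareads in Tomato+ OSKM NSC, 42 in Tomato- OSKM NSC, 46 on day 6, 27 in brain NSC, 58 in iPSC, 41 in ESC and 45 in MEF. The 95% exact (Clopper-Pearson) intervals of a read ratio used only non-overlapping exons with whole reads. They are given only where they contain the RPKM ratio, and cover counting error only. Left out by that rule were intervals such as Gcat on day 6 over ESC, 4.24 to 6.10 at an RPKM ratio of 1.76. Psph on day 6 over MEF was another, 4.68 to 5.16 at an RPKM ratio of 3.29. For these the reads and the mean over exons differ.

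Ratios were log2((a + 1)/(b + 1)) in RPKM, and genes were counted at 2-fold or more among those of at least 2 RPKM in 1 compared library. The 7 comparisons share libraries (MEF in 3, day 6 in 3). Pooling or passage effects cannot be seen with 1 library per population, and the labels name no batch. Named were all 10 enzymes, all 3 partners of Gldc, at most 4 genes per other list and comparison by absolute log2 ratio, and 5 genes most like each of Tdh, Gldc, Phgdh and Shmt1. The enzymes and lists were chosen with earlier results of these data known. The alternatives were other scalings, pseudocounts, floors and ways of joining exons, and leaving out 1 of 2 libraries on a side. The counting was tested on simulated data. Python 3.11.15, pandas 2.3.3, numpy 2.4.6, scipy 1.17.1 and matplotlib 3.10.9 were used.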

Additional observations from a re-analysis of the deposited data

How the results depend on the processing

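Of 170 recomputed counts of enzymes, 156 stayed within 1.5 times the reported one. The other 14 concern small counts. Enzymes lower in OSKM NSC than on day 6, reported as 1, numbered 3 with Tomato- alone and 3 by the highest exon of each gene. They numbered 2 with equal totals, 2 with median-of-ratios scaling and 2 with equal totals without Gm42418. Enzymes higher in OSKM NSC than on day 6, reported as 1, numbered 2 by the highest exon. Enzymes higher in OSKM NSC than in brain NSC, reported as 1, numbered 2 with Tomato+ alone and 0 with a pseudocount of 4. The 1 enzyme higher in Tomato+ than in Tomato- OSKM NSC, Gcat, was lost (0) with equal totals, with median-of-ratios scaling, with a pseudocount of 4 and with equal totals without Gm42418. Enzymes lower on day 6 than in iPSC and ESC, reported as 1, numbered 2 by the highest exon and 0 with equal totals without Gm42418. That setting and the removal of exons with at most 3 reads in every library were chosen after seeing the data. No log2 ratio of 1 or more in size changed sign, but some smaller ones did, such as Mthfd1l in Tomato+ over Tomato- OSKM NSC. The scaling factors of the median-of-ratios setting ran from 0.843 in MEF to 1.23 in Tomato+ OSKM NSC. By the highest exon Psat1 on day 6 over MEF was 0.52 (log2) and by the median over exons Mthfd2 was 0.82, under 2-fold. No paired analysis was possible because each population has 1 library. Counting error is small for all enzymes but Tdh outside day 6, iPSC and ESC and the 5′ exon of Gcat in brain NSC and MEF. The spread between cultures is unknown.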
